A study of Mus musculus with 48 samples.

Results

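MHCIIlow dermal macrophages from mouse ear skin were compared at day 11 and day 5 of daily imiquimod, on 3 arrays a day, which are 6 of the 48 arrays of the series. The arrays were chosen by their source name alone, with no measured value used. The study sorted 6 populations of skin phagocytes by flow cytometry and hybridised their amplified RNA to Affymetrix mouse gene arrays. The day 11 and day 5 groups held macrophages of the gate CD11b+CD64hiCCR2lowLy-6ClowMHCIIlow from mice aged 8 to 11 weeks whose ears received 5% imiquimod cream (Aldara) every day, at 7 mg of imiquimod per ear side, in a course of 14 days. The untreated group, used here as the time without imiquimod, held 3 arrays of the same gate from untreated ears. The labels give no strain or genotype. Separate mice are not named for the 3 samples of a group. The p-values here rest on the spread between samples of the same group, pooled over all 16 groups of the 48 arrays. That spread may be technical, and most of it comes from other populations and times. The labels also give 2 dispase conditions for the skin without saying which sample had which. The letters in the array titles (GB at day 11, FQ at day 5) change with the day, and anything that follows those letters cannot be told apart from the day.

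Imiquimod is a ligand of Toll-like receptor 7 and, applied to mouse skin, raises a psoriasis-like inflammation with monocyte influx, type I interferon and thickened epidermis. Dermal macrophages are phagocytes that hold much of the tissue's scavenging and clearance capacity, present little antigen to naive T cells and can be renewed both by local division and from monocytes. MHC class II molecules, which carry peptides to CD4+ T cells, divide them into MHCIIlow and MHCIIhigh subsets by surface level.

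The medians of the 6 arrays were 4.137 to 4.22 on the log2 scale, and 12924 to 13329 genes lay above the expression threshold. RMA puts all arrays on a common scale, so these figures do not measure array quality. Array weights from limma, lower for arrays further from their group, were 1.181, 1.78 and 1.885 at day 11. At day 5 they were 1.978, 1.739 and 1.113. Pearson's r over genes was 0.981 to 0.988 within a day and 0.974 to 0.984 between the days, and each of the 6 arrays correlated best with an array of its own group. Of the 3 untreated arrays, replicate 3 correlated best with an untreated MHCIIhigh array. The 14 measured macrophage markers, averaged per array, lay at 10.8, 10.7 and 10.9 at day 11, against 10.7, 10.7 and 10.5 at day 5. Of the 13 conventional dendritic cell markers, 4 (Xcr1, Clec9a, Btla and Dpp4) were below the threshold on all 6 arrays. The others were above it on at least 1 of the 6, so these markers do not show the cells to be free of dendritic cells. Precision is limited by the number of arrays.

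Between day 11 and day 5, 75 of 15591 genes passed the test (limma, Benjamini-Hochberg adjusted p below 0.05 over all genes), which is 0.481% of genes. Of these, 13 were higher at day 11 (0.0834%) and 62 were lower (0.398%), and 59 differed by at least 2-fold, 9 higher and 50 lower. Without adjustment, 816 genes had a p below 0.05. Among the 62 lower genes, 21 belonged to the S phase or the G2 and M phase list, which held 31 and 35 of the 15591 genes. A further 18 with a cell division or replication role were picked from the lower genes after their values were seen. The share of all genes with such a role was not counted, so the 18 have nothing to be compared with. The 13 higher genes held 4 of the MHC class II system, H2-Aa, H2-Ab1, H2-Eb1 and Cd74. The count of 75 depended on single arrays. It was 37 without day 11 replicate 1, 55 without replicate 2 and 43 without replicate 3, and 40, 46 and 43 without day 5 replicates 1, 2 and 3.

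**Figure D1:**
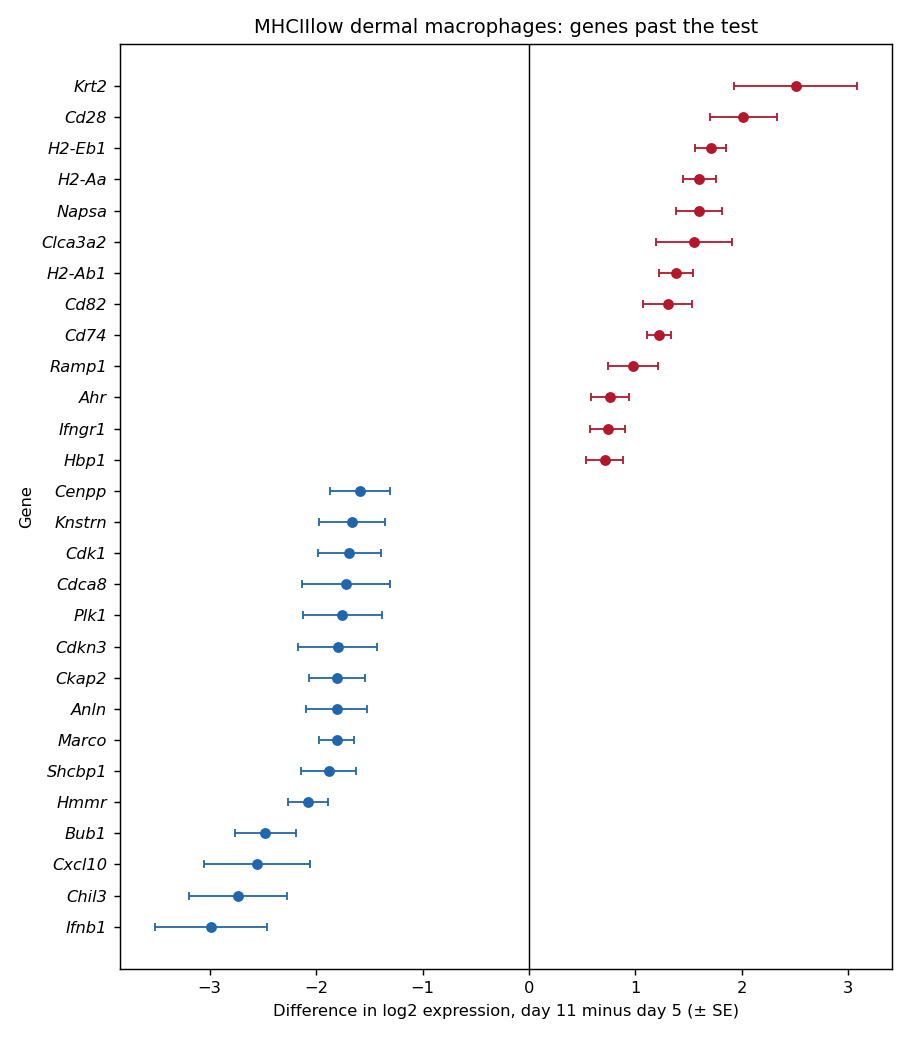
Difference in log2 expression, day 11 minus day 5, with its standard error, for the 13 genes higher at day 11 (red, top) and the 15 genes with the largest fall (blue, bottom) in MHCIIlow macrophages. The 4 MHC class II system genes lie between 1.22 and 1.71, and Bub1, Hmmr, Plk1, Cdk1 and other cell division genes make up most of the fallen ones.

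The promoters of genes from these 2 groups are shown first, since members of each group moved together. The windows are RefSeq sequences of GRCm38.p6 from 250 bases before to 50 bases after a transcription start. In the first 3, Cdk1 (chr10:69352863-69353162, minus strand), Plk1 (chr7:122159185-122159484, plus strand) and Hmmr (chr11:40733388-40733687, minus strand), capitals mark the CCAAT box and the element TTTGAA, on either strand. The element TTTGAA is known as the cell cycle genes homology region, and both are described in promoters of genes that peak in G2 and mitosis.
Cdk1: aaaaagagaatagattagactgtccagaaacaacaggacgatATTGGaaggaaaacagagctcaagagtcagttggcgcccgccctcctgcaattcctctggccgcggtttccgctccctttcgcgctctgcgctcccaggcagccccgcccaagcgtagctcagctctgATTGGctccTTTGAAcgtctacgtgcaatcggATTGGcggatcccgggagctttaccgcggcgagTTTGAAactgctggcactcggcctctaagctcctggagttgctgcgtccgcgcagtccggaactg
Plk1: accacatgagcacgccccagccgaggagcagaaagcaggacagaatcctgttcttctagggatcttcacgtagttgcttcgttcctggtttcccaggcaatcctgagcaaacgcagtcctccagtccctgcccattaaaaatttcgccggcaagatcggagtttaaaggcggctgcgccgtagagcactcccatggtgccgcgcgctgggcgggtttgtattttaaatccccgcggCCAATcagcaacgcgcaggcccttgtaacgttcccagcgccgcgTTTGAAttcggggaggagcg
Hmmr: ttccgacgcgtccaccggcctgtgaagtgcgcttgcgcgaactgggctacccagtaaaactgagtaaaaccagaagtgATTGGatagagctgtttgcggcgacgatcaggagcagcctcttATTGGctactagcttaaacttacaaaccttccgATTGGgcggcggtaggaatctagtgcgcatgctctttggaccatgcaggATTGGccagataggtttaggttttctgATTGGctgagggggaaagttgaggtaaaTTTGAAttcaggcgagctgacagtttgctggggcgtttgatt
In the next pair, H2-Aa (chr17:34287774-34288073, minus strand) and H2-Eb1 (chr17:34305617-34305916, plus strand), capitals mark the Y box of MHC class II promoters, CTGATTGG.
H2-Aa: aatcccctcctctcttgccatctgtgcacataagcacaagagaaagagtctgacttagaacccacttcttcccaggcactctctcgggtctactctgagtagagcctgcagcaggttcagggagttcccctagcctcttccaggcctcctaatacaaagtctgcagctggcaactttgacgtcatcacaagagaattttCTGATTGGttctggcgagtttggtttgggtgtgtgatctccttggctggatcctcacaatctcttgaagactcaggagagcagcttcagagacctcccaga
H2-Eb1: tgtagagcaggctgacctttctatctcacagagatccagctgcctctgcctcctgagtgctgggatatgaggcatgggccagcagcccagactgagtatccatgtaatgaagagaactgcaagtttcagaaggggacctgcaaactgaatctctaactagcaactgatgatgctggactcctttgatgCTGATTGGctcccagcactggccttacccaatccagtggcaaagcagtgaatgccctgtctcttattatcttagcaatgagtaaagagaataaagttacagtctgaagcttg
TTTGAA stood in 78.8% of the 33 windows found for 31 of the 35 measured G2 and M phase genes, in 7.14% of the 28 windows found for 26 of the 31 S phase genes, and in 17.9% of all 32851 mouse windows. CCAAT stood in 78.8% of the G2 and M phase windows, 67.9% of the S phase windows and 37.4% of all windows. Both stood together in 69.7% of the G2 and M phase windows, 7.14% of the S phase windows and 6.95% of all windows. CTGATTGG stood in 4 of 15 windows of the MHC class II list (26.7%), and in 30.3% of the G2 and M phase windows, 28.6% of the S phase windows and 4.1% of all windows, so it was not particular to the class II list. CTGATTGG holds the CCAAT box read on the other strand, so those matches overlap. These counts describe letters in a window and show no binding.

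Genes of G2 and mitosis were lower at day 11. Of 36 genes listed, 35 were measured, and 20 of them fell and none rose, where 0.398% of all genes fell. All 35 differences were negative, with a median of −1.20 against 0.01 over all genes, and in 33 of the 35 the 3 day 11 values lay below the 3 day 5 values, as in 8.22% of all genes. The count of 20 was 8 without day 11 replicate 1, 12 without replicate 2 and 9 without replicate 3, and 8, 10 and 9 without day 5 replicates 1, 2 and 3. The mean of the list was 5.07, 5.31 and 5.23 at day 11, against 6.39, 6.48 and 6.33 at day 5, with no overlap.

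Among the kinases that drive entry into mitosis, Cdk1 measured 5.20, 5.99 and 5.96 at day 11, against 7.27, 7.54 and 7.41 at day 5. It fell by 1.69 ± 0.29 on the log2 scale (SE, limma adjusted p = 0.00139). Plk1, the polo-like kinase of centrosomes and kinetochores, measured 5.52, 5.48 and 5.48 at day 11, against 7.45, 7.23 and 7.05 at day 5. In both genes every day 11 value lay more than 1 log2 unit below every day 5 value, and Plk1 fell by 1.75 ± 0.37 (limma adjusted p = 0.0135). The call of Plk1 was lost without 5 of the 6 arrays in turn, with limma adjusted p up to 0.0944.

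Bub1, a kinase of the spindle checkpoint, had the largest fall of the list. It measured 3.14, 3.62 and 4.03 at day 11, against 5.97, 6.18 and 6.07 at day 5. It fell by 2.48 ± 0.28 (limma adjusted p = 5.26e-07). Of the day 11 values, 2 lay below the expression threshold of 3.77, where the size of a difference is uncertain. Hmmr, a hyaluronan receptor that also acts on the spindle, measured 3.22, 3.68 and 3.42 at day 11, against 5.33, 5.68 and 5.53 at day 5. It fell by 2.07 ± 0.19 (limma adjusted p = 2.59e-09) with all day 11 values below the threshold. Anln, the anillin of the cleavage furrow, measured 5.17, 4.61 and 4.24 at day 11, against 6.58, 6.50 and 6.36 at day 5, and fell by 1.81 ± 0.29 (limma adjusted p = 0.000387).

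The other fallen members of the list were Cdca8 of the chromosomal passenger complex, the kinetochore genes Cenpe, Cenpf and Ndc80, the kinesins Kif4, Kif20a and Kif23, the spindle assembly factor Tpx2, the cytokinesis regulator Ect2, the cyclin Ccnb2, the anaphase activator Cdc20, and Melk, Cdca3, Top2a and Mki67. Mki67, the Ki-67 antigen, measured 6.31, 6.30 and 6.51 at day 11, against 7.70, 7.53 and 7.77 at day 5, and fell by 1.29 ± 0.30 (limma adjusted p = 0.0291). With each of the 6 arrays left out in turn, its adjusted p was between 0.0739 and 0.14. Top2a, the topoisomerase that untangles chromosomes, measured 5.91, 5.77 and 5.94 at day 11, against 7.17, 7.21 and 7.39 at day 5. Its fall of 1.38 ± 0.30 (limma adjusted p = 0.0148) held for the brighter of its probe sets. The other averaged 3.03 over all arrays, below the expression threshold, and the mean of the probe sets gave −0.72 (limma adjusted p = 0.221). With each of the 6 arrays left out in turn, the limma adjusted p of Top2a was between 0.0535 and 0.089. Members that did not pass the test included Aurka at −0.57, Aurkb at −0.67 and Nek2 at −0.32, kinases of the mitotic spindle and centrosome.

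Among the genes with the largest falls outside the list, 5 also serve cell division. Ckap2, which stabilises spindle microtubules, fell by 1.80 ± 0.26 (limma adjusted p = 7.89e-05). Cdkn3, a phosphatase that acts on cyclin-dependent kinases, fell by 1.80 ± 0.37 (limma adjusted p = 0.0115). The call of Cdkn3 was lost under 4 of 19 alternatives, with limma adjusted p up to 0.115. Knstrn, a spindle protein, Cenpp, a centromere protein, and Shcbp1, found at the midbody, fell by 1.67, 1.59 and 1.88. In all of these every day 11 value was below every day 5 value.

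Few DNA replication genes passed the test. Of 31 measured S phase genes, 1 fell, Rrm2, the small subunit of ribonucleotide reductase, and none rose, where 0.398% of all genes fell. It measured 4.91, 4.74 and 5.00 at day 11, against 6.52, 6.23 and 6.62 at day 5, and fell by 1.57 ± 0.38 (limma adjusted p = 0.0431). Its call was lost under 10 of 19 alternatives, each of the 6 arrays left out among them, with adjusted p up to 0.218. The list's median was −0.64, all 31 differences were negative, and 23 of 31 genes did not overlap, as in 8.22% of all genes. Mcm2 and Mcm5 of the replicative helicase were at −0.73 and −0.64, and Pcna, the polymerase clamp, at −0.25, without passing the test. The mean of the list was 5.50, 5.54 and 5.64 at day 11, against 6.06, 6.28 and 6.29 at day 5. Whether the mitotic list differed from the replication list was not tested.

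The mean of the mitotic list was 4.85 ± 0.17 in untreated skin, 6.40 ± 0.07 at day 5 and 5.21 ± 0.12 at day 11 (SD, n = 3 each). From untreated skin to day 5, 33 of 35 members rose and none fell, with a median of 1.47, where 7.22% of all genes rose. From untreated skin to day 11, 4 rose (Bub1b, Ccnb2, Birc5 and Cdc20) and 2 fell (Mki67 and Anln), with a median of 0.36, where 4.33% of all genes rose and 5.39% fell. Without untreated replicate 3, 31 rose and none fell at day 5, and 4 rose and none fell at day 11. Without untreated replicate 1, 1 rose at day 11. These comparisons share arrays with each other and with day 11 against day 5. Of the S phase list, 17 of 31 rose at day 5 and 2 at day 11 against untreated skin.

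The MHC class II genes were higher at day 11. Surface MHC class II was part of the sorting gate, so their level is tied to how the cells were chosen on both days. H2-Eb1, a beta chain, measured 9.14, 9.95 and 9.40 at day 11, against 7.58, 7.79 and 7.98 at day 5. H2-Aa, the alpha chain of I-A, measured 10.56, 10.92 and 10.48 at day 11, against 8.92, 9.0 and 9.24 at day 5. Every day 11 value exceeded every day 5 value in both. H2-Eb1 rose by 1.71 ± 0.15, or 3.27-fold (limma adjusted p = 1.77e-09), and H2-Aa by 1.60 ± 0.16, or 3.04-fold (limma adjusted p = 9.77e-09).

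H2-Ab1, the beta chain of I-A, measured 10.51, 10.48 and 10.53 at day 11, against 9.07, 8.79 and 9.51 at day 5, and rose by 1.38 ± 0.16 (limma adjusted p = 7.28e-07). Cd74, the invariant chain that guides class II molecules to endosomes, measured 10.57, 10.88 and 10.64 at day 11, against 9.41, 9.35 and 9.67 at day 5, and rose by 1.22 ± 0.11 (limma adjusted p = 3.99e-09). These 4 of 17 measured list members rose and none fell, where 0.0834% of all genes rose, and the count was 4 with each of the 6 arrays left out in turn. The list's median was 0.15. H2-DMa, a peptide loading chain, was 0.56 higher without passing the test (limma adjusted p = 0.129). Ciita, the class II transactivator, was at 0.04, and the costimulatory genes Cd80, Cd86 and Cd40 were at −0.17, −0.21 and 0.27, none past the test.

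In untreated skin, at day 5 and at day 11, H2-Aa averaged 9.99, 9.05 and 10.66, H2-Eb1 8.67, 7.79 and 9.50, and Cd74 11.32, 9.48 and 10.70. Day 5 was thus the lowest of the 3 times for each. Against untreated skin, H2-Aa, H2-Ab1 and H2-Eb1 fell at day 5 and rose at day 11, while Cd74 fell at both, and the same held without untreated replicate 3. Without untreated replicate 2, 3 of the 4 fell at day 5. No conventional dendritic cell marker of 13 passed the test, where 0.481% of all genes passed. The mean of these markers was 4.69, 4.56 and 4.60 at day 11, against 4.53, 4.54 and 4.57 at day 5. In a bulk sample, a change in the share of a cell type and a change in RNA per cell cannot be told apart.

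**Figure D2:**
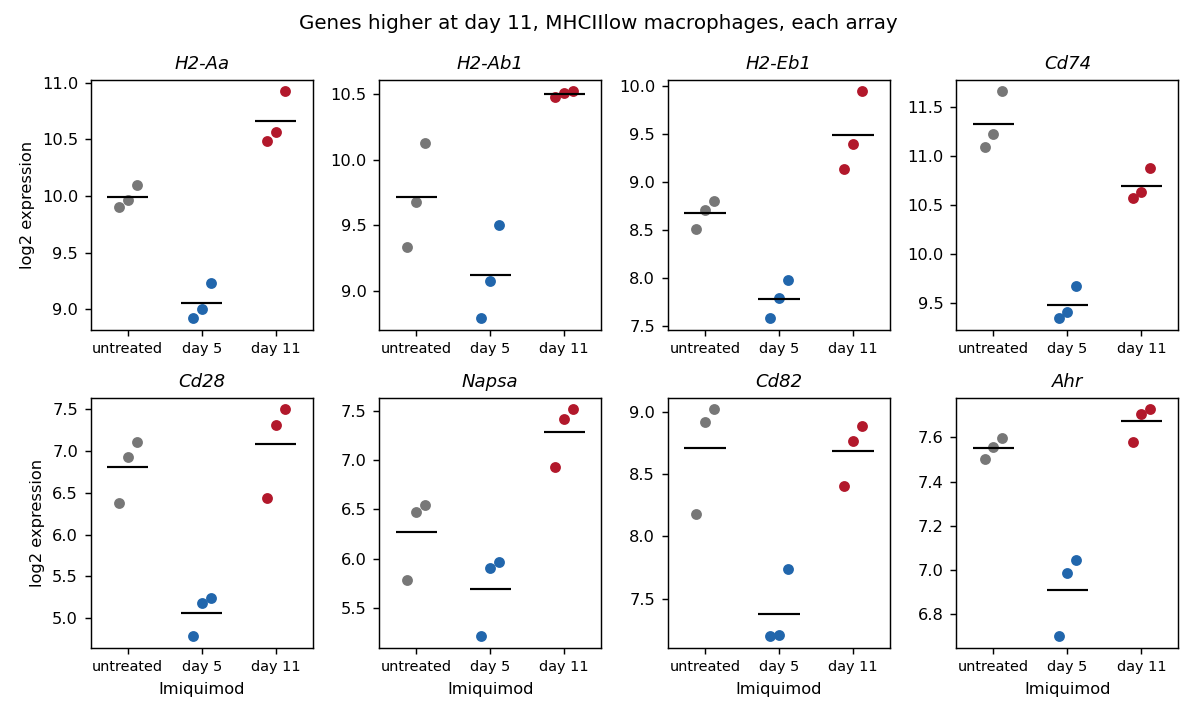
Log2 expression on each array (points) and group mean (bars) in untreated skin, at day 5 and at day 11 for 8 genes higher at day 11 than at day 5 in MHCIIlow macrophages. In each the 3 day 11 arrays lie above the 3 day 5 arrays, and H2-Aa, H2-Ab1 and H2-Eb1 lie higher at day 11 than the untreated mean.

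The other genes that rose included receptors and a protease. Cd28, the costimulatory receptor best known from T cells, measured 6.44, 7.31 and 7.50 at day 11, against 4.78, 5.18 and 5.24 at day 5. It rose by 2.02 ± 0.32, or 4.05-fold (limma adjusted p = 0.000281), to values like the 6.38, 6.93 and 7.11 of untreated skin. None of the 9 measured T cell markers passed the test, where 0.481% of all genes passed. Only 1 of them, Cd3d, was below the threshold on all 6 arrays. The mean of the 9 was 4.62 to 4.99 at day 11, against 4.56 to 4.86 at day 5. The part of T cell RNA in the Cd28 result was not tested. Napsa, the aspartic protease napsin A, measured 6.93, 7.42 and 7.52 at day 11, against 5.21, 5.96 and 5.90 at day 5. It rose by 1.60 ± 0.22 (limma adjusted p = 2.65e-05), again with no overlap.

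Cd82, a tetraspanin, rose by 1.30 ± 0.23 (limma adjusted p = 0.00174). Ahr, the aryl hydrocarbon receptor, rose by 0.76 ± 0.18 (limma adjusted p = 0.0365), and Ifngr1, the ligand-binding chain of the interferon gamma receptor, by 0.74 ± 0.16 (limma adjusted p = 0.0204). Ahr was the 1 called member among 34 measured lineage transcription factors, where 0.0834% of all genes rose. Its call was lost under 12 of 19 alternatives, with adjusted p up to 0.275. The call of Ifngr1 was lost with each of the 6 arrays left out in turn, with limma adjusted p up to 0.118. Hbp1, a repressor that slows the cell cycle, rose by 0.71 and Ramp1, a subunit of the receptor for calcitonin gene-related peptide, by 0.98. Ramp1 was the single gene of the 13 whose days overlapped. Clca3a2, a chloride channel accessory gene, rose by 1.55 and stayed below its untreated values, 5.28 to 6.05 at day 11 and 7.16 to 7.49 in untreated skin. Of 19 alternatives, 11 lost the call of Hbp1, 7 that of Ramp1 and 6 that of Clca3a2. The limma adjusted p reached 0.276, 0.455 and 0.21 in these genes.

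Krt2, a keratin of the upper epidermis, had the largest rise past the test, 2.51 ± 0.58 (limma adjusted p = 0.0291). It measured 7.37, 6.52 and 7.09 at day 11, against 5.00, 3.91 and 4.54 at day 5. The call was lost without 5 of the 6 arrays in turn, with adjusted p up to 0.245. Keratinocyte markers moved with it. Their mean was 6.50, 6.07 and 6.47 at day 11, against 5.54, 5.78 and 5.96 at day 5, and 11 of 23 did not overlap, as in 7.73% of all genes, though none passed the test. Krt10 was 2.03 higher (limma adjusted p = 0.054). Krt2 was also higher at day 11 by 1.23 in CD11b+ dendritic cells, 1.28 in monocyte-derived dendritic cells and 1.35 in Langerhans cells, and its difference from their mean did not pass the test. The part of keratinocyte RNA in the Krt2 result was not tested.

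Interferon and cytokine genes were lower at day 11 in single members. Ifnb1, the type I interferon beta gene, measured 3.34, 3.70 and 3.08 at day 11, all below the threshold, against 5.01, 7.29 and 6.80 at day 5. It fell by 2.99 ± 0.53 (limma adjusted p = 0.00153), a size that rests on day 11 values below the threshold. Cxcl10, a chemokine induced by interferons, measured 6.48, 8.37 and 7.74 at day 11, against 9.75, 10.20 and 10.32 at day 5. It fell by 2.56 ± 0.50 (limma adjusted p = 0.00491), and without day 11 replicate 1 the difference was −2.03 with an adjusted p of 0.108. With the 6 arrays alone, the adjusted p was 0.0689 for Ifnb1 and 0.0605 for Cxcl10.

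Cxcl10 was the 1 member of 42 measured interferon-stimulated genes that fell, and none rose, where 0.398% of all genes fell. Their median was −0.28, and 8 members did not overlap in the lower direction, as in 8.22% of all genes. Irf7, the regulator of type I interferon genes, was at 0.14. Ifnb1 was likewise the 1 called member of 34 inflammatory cytokines and mediators, whose median was −0.38, and 11 of them did not overlap in the lower direction, as in the same 8.22% of all genes. Tnf measured 7.96, 9.30 and 9.90 at day 11, against 10.66, 10.68 and 11.11 at day 5, with no overlap. Its difference of −1.76 ± 0.46 did not pass the test (limma adjusted p = 0.0831). Il6 was at −1.21, Il1b at −0.94 and Il10 at −0.20, none past the test. Day 11 replicate 1 had the lowest value of the 6 arrays in Tnf, Il6, Il1b, Cxcl10 and Ptgs2, the inducible cyclooxygenase, and Ptgs2 measured 5.03 there, against 8.83 and 8.54 in the other day 11 arrays. Tnf without that array was at −1.22 (limma adjusted p = 0.833). It passed the test without day 11 replicate 3, at −2.19 (limma adjusted p = 0.038). With array weights it also passed, at −1.56 (limma adjusted p = 0.0121).

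Several macrophage surface and secreted genes fell too. Chil3, the chitinase-like protein Ym1 of alternative activation and of monocytes, measured 3.10, 3.98 and 3.95 at day 11, against 6.56, 6.76 and 5.92 at day 5, and fell by 2.74 ± 0.46 (limma adjusted p = 0.000892). Marco, a scavenger receptor for bacteria and particles, measured 4.17, 4.10 and 4.51 at day 11, against 5.77, 6.31 and 6.11 at day 5, and fell by 1.81 ± 0.16 (limma adjusted p = 2.59e-09). Neither gene overlapped between the days. Marco averaged 3.41 in untreated skin, 6.07 at day 5 and 4.26 at day 11.

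Vsig4, a complement receptor of resident macrophages, measured 4.80, 5.35 and 4.78 at day 11, against 5.58, 5.87 and 6.05 at day 5, and fell by 0.85 ± 0.19 (limma adjusted p = 0.0252). Mmp9, a gelatinase, measured 4.29, 4.54 and 4.39 at day 11, against 4.95, 6.10 and 5.54 at day 5, and fell by 1.12 ± 0.25 (limma adjusted p = 0.017). Both were low on this scale at either day, and the call of each was lost under 7 of 19 alternatives. Qpct, the glutaminyl cyclase, fell by 1.45 ± 0.34 (limma adjusted p = 0.0364). Its call was lost under 8 of 19 alternatives, with limma adjusted p up to 0.374. Qpct averaged 8.30 in untreated skin, 7.40 at day 5 and 5.95 at day 11.

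**Figure D3:**
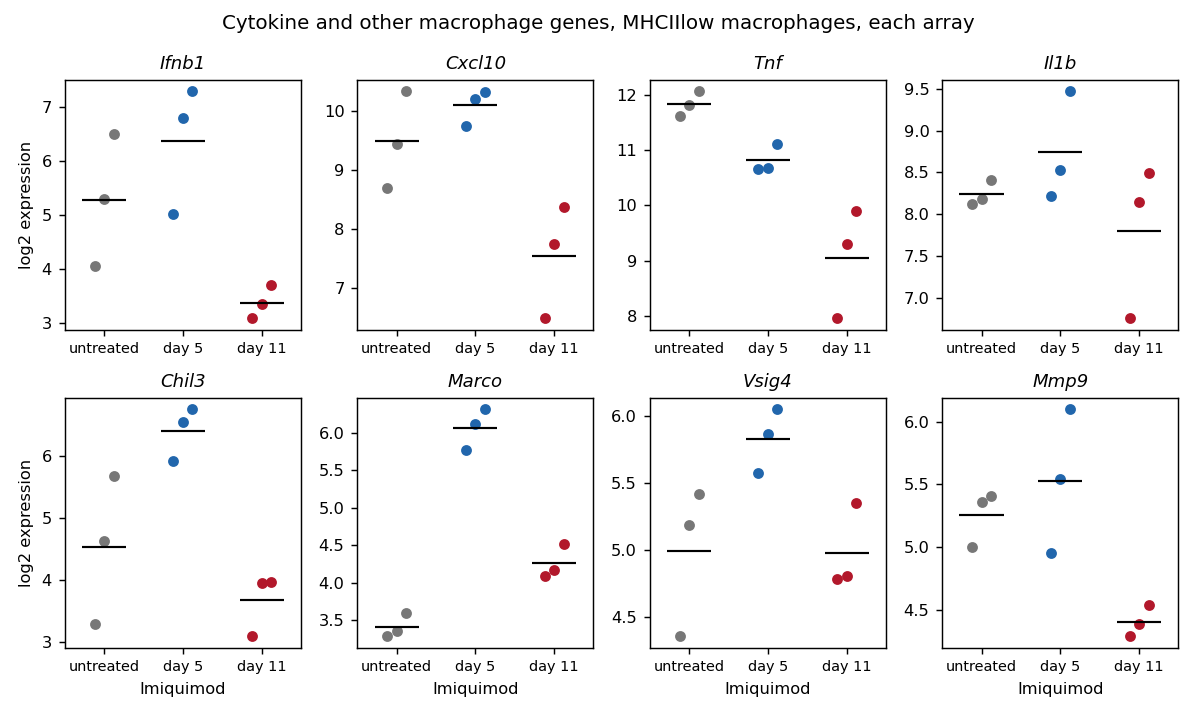
Log2 expression on each array (points) and group mean (bars) in untreated skin, at day 5 and at day 11 for cytokine and other macrophage genes in MHCIIlow macrophages. Ifnb1, Cxcl10, Chil3, Marco, Vsig4 and Mmp9 passed the test between day 11 and day 5, and Tnf and Il1b did not.

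Identity genes of the population were counted next, and counts this small do not show that these genes were unchanged. Of 41 macrophage core genes none passed the test, where 0.481% of all genes passed. Their median was 0.16, and 32 of the 41 differences were positive, against 8291 of 15591 over all genes. In 14 the days did not overlap in the higher direction, as in 7.73% of all genes. Csf1r, the receptor for colony stimulating factor 1, was at 0.28, Adgre1, which encodes F4/80, at 0.27, Mertk, a receptor for apoptotic cells, at 0.33, Fcgr1, which encodes CD64, at −0.10, and Itgam, which encodes CD11b, at 0.10. Of 33 resident dermal macrophage genes, Vsig4 alone fell, where 0.398% of all genes fell. Lyve1, a hyaluronan receptor of resident macrophages, measured 9.08, 7.22 and 7.64 at day 11, against 9.23, 9.89 and 8.96 at day 5, and its difference of −1.38 ± 0.44 did not pass the test (limma adjusted p = 0.302). Day 11 replicate 1 lay among the day 5 values. Mrc1 and Cd163, scavenger receptors of the same cells, were at −0.04 and −0.13.

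Of 24 monocyte signature genes, Chil3 alone fell, where 0.398% of all genes fell, and the median was −0.08. Ccr2, the monocyte chemokine receptor and part of the gate, was at −0.12. Of the remaining lists, complement held the fallen Vsig4 among 22 genes, C-type lectin and scavenger receptors Marco among 31, matrix remodelling and growth factors Mmp9 among 38, brakes of inflammation Vsig4 among 30, alternative activation Chil3 among 30, and chemokines Cxcl10 among 28, each beside the same 0.398% of all genes. No member passed the test among 16 MHC class I, 29 conventional dendritic cell, 13 chemokine receptor, 6 Fc receptor, 27 apoptotic cell uptake, 37 lysosome and lipid, 20 cholesterol synthesis, 26 glycolysis and hypoxia, 37 oxidative phosphorylation, 27 iron and heme, 22 endosomal Toll-like receptor, 29 NF-kB, and 31 immediate early and heat shock genes. Over all genes, 0.481% passed. The medians of those 13 lists ran from −0.18 for cholesterol synthesis to 0.27 for endosomal Toll-like receptor sensing, whose members Tlr7 and Tlr9 were 0.51 and 0.67 higher at day 11.

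Some genes far from their untreated level did not pass the test between the days. S100a8, an alarmin subunit, averaged 5.16 in untreated skin, 9.96 at day 5 and 10.21 at day 11. Cxcl13, the B cell chemokine, averaged 4.66, 10.66 and 11.22 at the same times. Against untreated skin, 31 of 37 oxidative phosphorylation genes rose at day 5, where 7.22% of all genes rose, and 20 at day 11, where 4.33% rose. Their medians were 0.74 and 0.59. Between day 11 and day 5 none passed the test and the median was −0.17. There 31 of the 37 differences were negative, against 7300 of 15591 over all genes. In 17 of the 37 the days did not overlap in the lower direction, as in 8.22% of all genes. Over all genes, 2208 (14.2%) passed the test between day 5 and untreated skin and 1516 (9.72%) between day 11 and untreated skin, and 972 passed at day 11 without day 11 replicate 2.

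Day 11 was set against day 5 in 3 other populations measured at both days: CD11b+ dendritic cells and Ly-6C high monocyte-derived dendritic cells of the dermis, and Langerhans cells of the epidermis. These had 150 (0.962%), 158 (1.01%, with 135 lower, 0.866%) and 330 (2.12%) genes past the test. The difference between the MHCIIlow macrophage change and the mean of these 3 changes passed the test for 56 genes (0.359%), 20 more positive and 36 more negative in MHCIIlow macrophages (0.128% and 0.231%). That count was 31 to 43 with 1 MHCIIlow array left out, and it was 95 (0.609%) against CD11b+ dendritic cells alone. It shares the MHCIIlow arrays with the comparison of the days.

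Of the 35 G2 and M phase genes, 14 had a more negative change in MHCIIlow macrophages than in the mean of the other 3, with a median difference of −1.22, and none a more positive one. Set against each population alone, 20 passed against CD11b+ dendritic cells (0.353% of all genes), 6 against monocyte-derived dendritic cells (0.128%) and 1, Hmmr, against Langerhans cells (0.115%). Within those populations, the medians of the list at day 11 minus day 5 were 0.46, 0.14 and −0.44. The mean of the list was 6.11 ± 0.10 in Langerhans cells at day 11, against 6.59 ± 0.33 at day 5, with 4 members called lower, where 1.54% of all genes were lower in Langerhans cells. For the other 34 genes the difference between MHCIIlow macrophages and Langerhans cells did not pass the test.

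**Figure D4:**
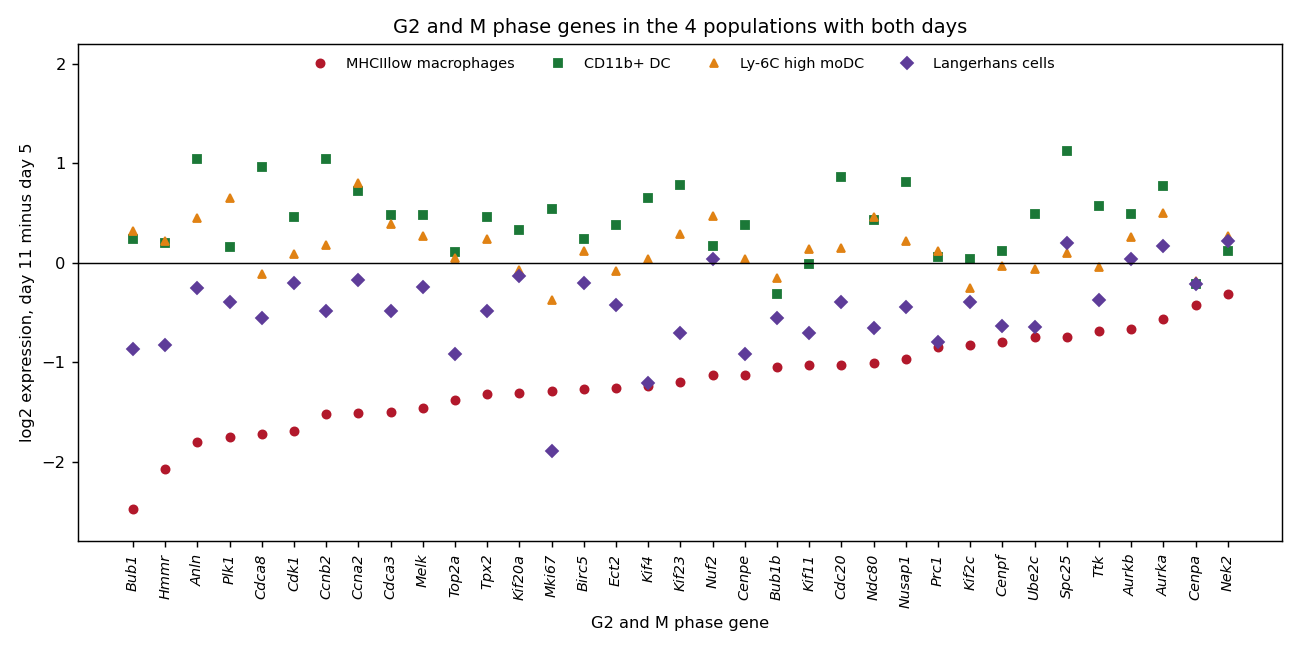
Day 11 minus day 5 in log2 expression for the 35 measured G2 and M phase genes in 4 populations, ordered by the value in MHCIIlow macrophages. MHCIIlow macrophages (circles) lie below 0 for every gene, while CD11b+ dendritic cells lie above 0 for 32 of 35 and Langerhans cells below 0 for 30 of 35.

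**Figure D5:**
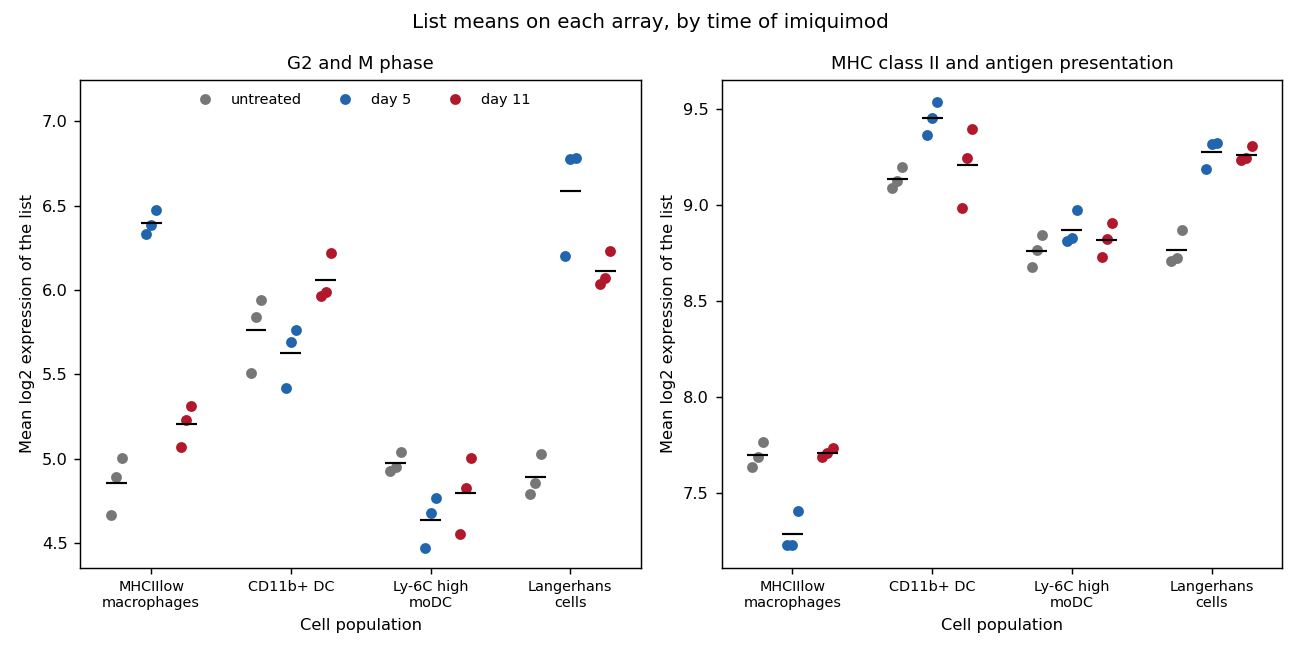
Mean log2 expression of the 35 G2 and M phase genes (left) and the 17 MHC class II and antigen presentation genes (right) on each array, with group means as bars, by population and time. In MHCIIlow macrophages the mitotic mean is 4.85 in untreated skin, 6.40 at day 5 and 5.21 at day 11, and the class II mean is 7.70, 7.29 and 7.71.

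The class II rise differed from the changes in the other 3 populations. H2-Aa, H2-Ab1, H2-Eb1 and Cd74 passed the test of the difference against each of the 3 populations, and against their mean the differences were 1.54 ± 0.18, 1.30 ± 0.19, 1.67 ± 0.17 and 1.17 ± 0.13 (SE). In the other populations these 4 genes changed by −0.04 to 0.14. The class II levels there were high throughout, and the list means at day 11 were 9.21 in CD11b+ dendritic cells, 8.82 in monocyte-derived dendritic cells and 9.26 in Langerhans cells, against 7.71 in MHCIIlow macrophages. Cd28, Napsa, Ahr and Marco also passed against each of the 3. Cxcl10, by contrast, was at −2.16, −1.65 and −2.42 in the other populations, and its difference from their mean, −0.48, did not pass the test.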

How the data were processed

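RNA of sorted skin phagocytes was amplified in 2 rounds and hybridised to Affymetrix mouse gene arrays, per the labels' protocols. The values deposited by the authors are log2 expression per probe set, made with RMA and the R package oligo, per the submitters' processing notes; versions are not given in the sources used here. Of 35556 probe sets, 21789 had 1 gene symbol in the platform annotation, 1621 had several and 12146 had none. Probe sets with 1 symbol were kept where they exceeded the 40th percentile (3.771) on at least 3 arrays, and the brightest probe set stood for its gene, which left 15591 genes. Group means of all 48 arrays in 16 groups were fitted with limma 3.58.1 in R 4.3.3 (lmFit, eBayes), so that the groups share an estimate of the spread. Contrasts were called at a Benjamini-Hochberg adjusted p below 0.05. The procedure was tested on simulated data. Replicates were numbered in accession order.

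The genes named are the 15 largest called rises and falls whose days did not overlap, up to 4 called members of each of 28 gene lists or, with none called, up to 2 members as values, a fixed panel and the 5 largest called differences between populations in each direction. Genes named beyond that rule, among them Ramp1 and the further members of lists, were chosen after their values were seen. The members and lists were chosen with earlier results of these data known. All 258 genes tabulated matched a RefSeq symbol. Alternatives changed the normalisation, filter, probe set rule, arrays fitted, variance model and replicates.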

Additional observations from a re-analysis of the deposited data

Results flagged for a closer look

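In 56 genes (0.359%) the MHCIIlow macrophage change between day 11 and day 5 differed from the mean change of 3 other populations. These were CD11b+ dendritic cells, monocyte-derived dendritic cells and Langerhans cells. Given here are the 5 largest differences in each direction, and those of the largest rises and falls between the days that passed this limma test. The rises and falls were picked on the MHCIIlow arrays that also enter the difference, so their passing is not separate support. A positive value means that the MHCIIlow change was the more positive. The class II genes had differences of 1.67 for H2-Eb1, 1.54 for H2-Aa, 1.3 for H2-Ab1 and 1.17 for Cd74. Other genes that rose in MHCIIlow macrophages had differences of 2.18 for Cd28, 1.73 for Napsa, 1.36 for Cd82 and 1.31 for Ahr. Cell division genes had differences of −2.38 for Bub1, −2.22 for Anln, −2 for Shcbp1, −1.94 for Hmmr, −1.89 for Plk1, −1.86 for Ckap2, −1.8 for Cdk1, −1.79 for Cenpp and −1.61 for Knstrn. Chil3 differed by −2.26, Qpct by −2.03 and Marco by −1.6. The adjusted p of Chil3 was 0.0435 and lay above 0.05 with each of the 6 MHCIIlow arrays left out in turn.

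Of the genes picked this way, a further 4 differed although they did not pass the test within MHCIIlow macrophages. Vps37b differed by 2, Sik1 by 1.89, Satb1 by 1.89 and Tspan13 by 1.74. Vps37b, a subunit of an endosomal sorting complex, was at 0.24 in MHCIIlow macrophages, and at −1.62 in CD11b+ dendritic cells, −1.38 in monocyte-derived dendritic cells and −2.26 in Langerhans cells. Satb1, a chromatin organiser, was at 0.10 in MHCIIlow macrophages, and at −2.98, −0.98 and −1.40 in the same populations. Sik1 had an adjusted p of 0.0482 and Tspan13 of 0.0412, close to the threshold.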

How the results depend on the processing

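No called gene changed sign under any of the 19 alternatives for the comparison of the days, but many of these could not change a sign. The days did not overlap in all 62 lower and 12 of the 13 higher genes, so leaving out 1 array keeps their sign. Fits on fewer groups leave the difference itself as it was. Of the 75 genes, 17 passed the test under each alternative in which they were measured. H2-Aa, H2-Ab1, H2-Eb1, Cd74, Cd28, Marco, Bub1, Hmmr and Anln were among those 17. The count of 75 genes was 41 with the 9 MHCIIlow arrays alone, 314 with array weights and 37 to 55 with 1 array left out. The count past 2-fold (59) was 34, 126 and 33 to 50 under the same 3 changes. With the 6 compared arrays alone, 78 genes passed, 42 of them among the 75. The 20 fallen G2 and M phase genes were 12 with the 9 arrays and 8 to 12 with 1 array left out, and the 4 risen class II genes stayed at 4. The difference from the mean of the 3 populations (56) was 248 with array weights and 31 to 43 with 1 array left out. Against CD11b+ dendritic cells (95) it was 190 with array weights and 64 to 73 with 1 left out. Against monocyte-derived dendritic cells (36) it was 111 with array weights, 21 with quantile normalisation repeated and 16 to 33 with 1 left out. Against Langerhans cells (71) it was 443 with array weights, 44 with the 4 populations alone and 47 to 60 with 1 left out. Against untreated skin the counts were 972 to 1478 at day 11 and 1535 to 2180 at day 5 with 1 of the 9 MHCIIlow arrays left out. Those ranges include fits that left out an array of the day not compared. Leaving out an untreated array was added after seeing the data. It gave 1177, 1200 and 1179 genes at day 11, and 1777, 1726 and 1745 at day 5, without untreated replicates 1, 2 and 3. The causes of these changes in count were not tested. A replicate block by the numbers in the titles gave 98 genes, 69 of them among the 75. Same-numbered arrays correlated at −0.0019 and −0.0702 in their deviations. With so few pairs this cannot show whether the numbers mark a pairing.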

Other observations

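MHCIIhigh dermal macrophages were measured at day 11 and not at day 5. They enter no tested contrast here, though their arrays share in the estimate of the spread. At day 11 their H2-Aa values were 12.16, 12.22 and 12.11, against 10.56, 10.92 and 10.48 in the MHCIIlow macrophages of that day, and their mean of the G2 and M phase genes was 4.88 ± 0.17, against 5.21 ± 0.12 (SD, n = 3 each). Vsig4 measured 3.33, 3.16 and 3.22 in MHCIIhigh macrophages, below the threshold, against 4.80, 5.35 and 4.78 in MHCIIlow macrophages. No test was made of these values.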
